A study of Mus musculus with 9 samples.

Results

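Homeobox genes were followed across 3 sorted cell populations of the mouse main olfactory epithelium, taking every gene symbol that begins with Dlx, Pax, Lhx, Msx, Emx, Otx, Irx, Meis, Pbx, Pou or Nkx and a digit, with the name and a digit of the Six2 family, or with Hox, one of the letters a to d, and a digit. The rule uses names only and found 127 of the 21909 gene symbols in the tables. Of these, 111 encode a homeodomain factor. The other 16 comprise 10 antisense or opposite-strand transcripts, the coactivator Pou2af1, the paired-box factors Pax1 and Pax9, which lack a homeodomain, and Pax2, Pax5 and Pax8, which keep part of one. Poly-A RNA was sequenced from mice aged 4 weeks. Horizontal basal cells (HBC), the reserve stem cells of this epithelium, were sorted as positive for a CD54 antibody carrying the dye PE, where CD54 is the product of Icam1. Globose basal cells (GBC), the dividing progenitors, were sorted as positive for Neurog1-EGFP, a green fluorescent reporter of a proneural gene. Mature olfactory sensory neurons (mOSN) were sorted as positive for OMP-ires-EGFP, a reporter behind the mature neuron gene Omp. The mouse strains and numbers are not stated in the labels. With a single library per population, differences could not be checked against replicates, and p-values are not given. Values are FPKM (fragments per kilobase of transcript, scaled to the mapped fragments of the library), with the deposited interval of Cufflinks, which covers counting error only.

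A homeodomain is a DNA-binding domain whose recognition helix favours sites with a TAAT core. The genes that carry it set regional identity in the embryo and cell identity in neurons. LIM-homeodomain factors such as Lhx2 act with the adaptor Ldb1, and Lhx2 is known to bind the enhancers of odorant receptor genes. The TALE class (Pbx, Meis) binds DNA beside other homeodomain factors, Six2 and its relatives act with Eya coactivators in sensory placodes, and Hox genes pattern the trunk and hindbrain rather than the nose.

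Each sort gene was highest in the library named for it, with Icam1 at 136 FPKM in HBC, Neurog1 at 163 in GBC and Omp at 1490 in mOSN. Omp also had 427 FPKM in GBC and 71.6 in HBC. All 10 listed basal markers were highest in HBC, where they summed to 1520 FPKM, against 3.08 in GBC and 3.88 in mOSN. The 10 precursor and immature neuron markers summed to 19.7 FPKM in HBC compared with 2150 in GBC and 298 in mOSN. Of these, 9 were highest in GBC and 1, Dcx, in mOSN (70.9 FPKM, against 61.7 in GBC). In mOSN they ranged from 0.0189 FPKM for Neurog1 to 93.7 for Stmn2. The 10 mature neuron markers summed to 153 FPKM in HBC compared with 1120 in GBC and 9690 in mOSN. The HBC library also held RNA of other cell types. Its 10 macrophage markers summed to 3660 FPKM (4.81 in GBC, 3.66 in mOSN), 10 sustentacular cell markers to 1850 (42.9 and 155), 6 Bowman gland markers to 801 (9.35 and 9.88), 8 fibroblast and smooth muscle markers to 149 (11.7 and 9.47), 6 T cell markers to 94.7 (0.809 and 0.142) and 10 B cell markers to 40.9 (2.30 and 0.449). Every marker of these 6 lists was above 0 in HBC. Of the 10 sustentacular cell markers, 6 were highest in HBC, led by Cbr2 (881 FPKM) and Cyp2f2 (748). The other 4 were highest in mOSN, among them Cyp2g1 at 46.1 FPKM, against 11.1 in HBC. Lyz2, at 573 FPKM in HBC, is counted in both the macrophage and the Bowman gland list. ScriptSeq was the kit used for HBC and the Illumina mRNA kit for the other libraries, so kit and population cannot be told apart in comparisons with HBC. In bulk libraries fewer cells of a type and less RNA per cell cannot be told apart either.

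Most of these genes were low everywhere. At least 1 FPKM in any library was reached by 33 of the 127 (26.0%), against 66.6% of all 21909 symbols. At least 5 FPKM was reached by 20 of the 127, against 10340 of the 21909. The number at 1 FPKM or more was 28 in HBC, 21 in GBC and 17 in mOSN. All Pbx and Meis members and 6 of 7 members of the Six2 family passed 1 FPKM somewhere, and none of 40 Hox or 14 Nkx members did. The highest value was in HBC for 54 members, in GBC for 36 and in mOSN for 7, and 30 were listed at 0 in all libraries. Since 94 of the 127 stayed under 1 FPKM in all libraries, many of these highest values lie near the floor. Of all 21909 symbols, 1856 were listed at 0 in all libraries. The library with the highest value was not counted over all symbols. The neuronal libraries were dominated by 1 gene. Lhx2 made up 42.8% of the members' summed FPKM in GBC and 47.9% in mOSN, but 1.21% in HBC.

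**Figure D1:**
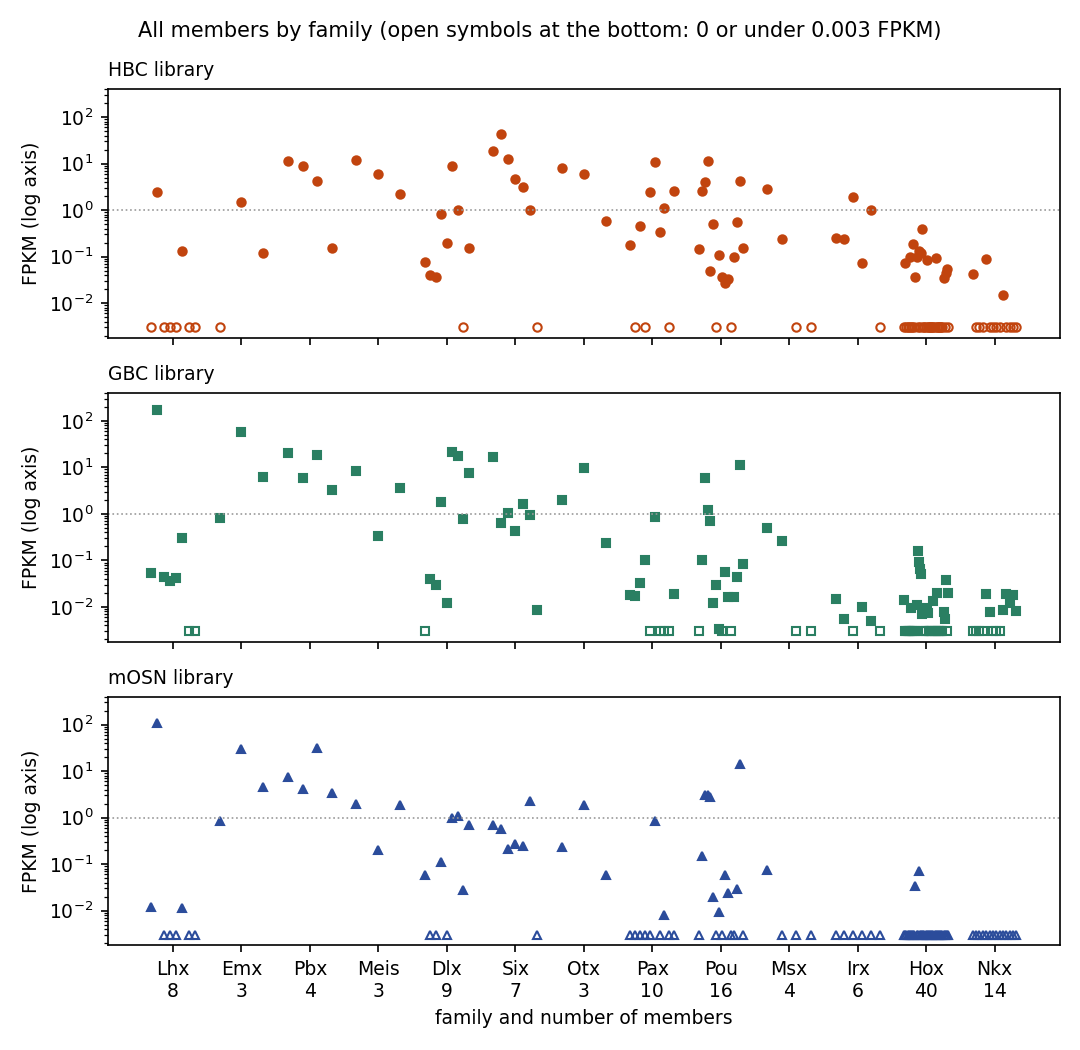
FPKM of all 127 members by family (x axis, with the number of members) in the HBC, GBC and mOSN libraries (3 panels, log axis). Each point is 1 gene in 1 library, open symbols at the bottom stand for 0 or under 0.003 FPKM, and the dotted line marks 1 FPKM. Lhx and Emx each have 1 high gene in GBC and mOSN, while no Hox or Nkx point reaches the dotted line.

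Lhx2 and Emx2 were the highest members in precursors and were low in HBC. Lhx2 (chromosome 2, 38206828 to 38225248, mm9) had 2.50 FPKM in HBC (interval 2.11 to 2.89) compared with 169.7 in GBC (167.7 to 171.7) and 109.5 in mOSN (107.1 to 112.0). It ranked 102 of 21909 symbols by FPKM in GBC and 261 in mOSN. Both neuronal libraries were far above HBC, with GBC 67.9-fold above HBC and the 3 intervals apart from each other. Emx2 (chromosome 19, 59533180 to 59539847), which encodes a homeodomain factor needed for normal odorant receptor expression, had 1.48 FPKM in HBC (1.25 to 1.71) compared with 56.8 in GBC (55.4 to 58.2) and 29.4 in mOSN (28.1 to 30.7). Its order over the libraries was that of Lhx2. Emx2os, the opposite-strand transcript that ends 54 bases from Emx2 in the tables, had 0.117, 6.19 and 4.45 FPKM in HBC, GBC and mOSN. The order over the libraries was again that of Lhx2. Emx1, the other Emx gene, was listed at 0 in HBC, with 0.817 FPKM in GBC and 0.836 in mOSN. The remaining 7 Lhx genes stayed at or below the 0.309 FPKM of Lhx6 in GBC, and Lhx8 and Lhx9 were listed at 0 in all libraries.

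The bases upstream of the start are shown for both genes because they are the highest members in GBC. The sequences are the 250 bases before the RefSeq start in GRCm38.p6, a later build than the mm9 of the tables, 5′ to 3′, with TAAT read on either strand (TAAT or ATTA) in capitals. Lhx2 is at chr2:38339031-38339280, strand + (the first of 2 RefSeq starts) and Emx2 at chr19:59458440-59458689, strand +.
Lhx2: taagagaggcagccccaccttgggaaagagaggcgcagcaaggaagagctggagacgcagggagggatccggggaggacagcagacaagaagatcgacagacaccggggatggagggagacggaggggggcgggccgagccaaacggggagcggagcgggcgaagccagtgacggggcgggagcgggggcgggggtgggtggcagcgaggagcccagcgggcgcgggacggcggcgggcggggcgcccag
Emx2: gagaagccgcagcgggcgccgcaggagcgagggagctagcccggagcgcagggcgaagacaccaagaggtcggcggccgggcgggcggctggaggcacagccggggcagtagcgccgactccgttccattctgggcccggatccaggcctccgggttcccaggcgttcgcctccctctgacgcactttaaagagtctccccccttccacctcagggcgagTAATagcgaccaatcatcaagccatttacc
The Lhx2 window held no TAAT and had 72.8% G and C, with 25 CpG. The Emx2 window held 1 TAAT and had 67.2% G and C, with 24 CpG.

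**Figure D2:**
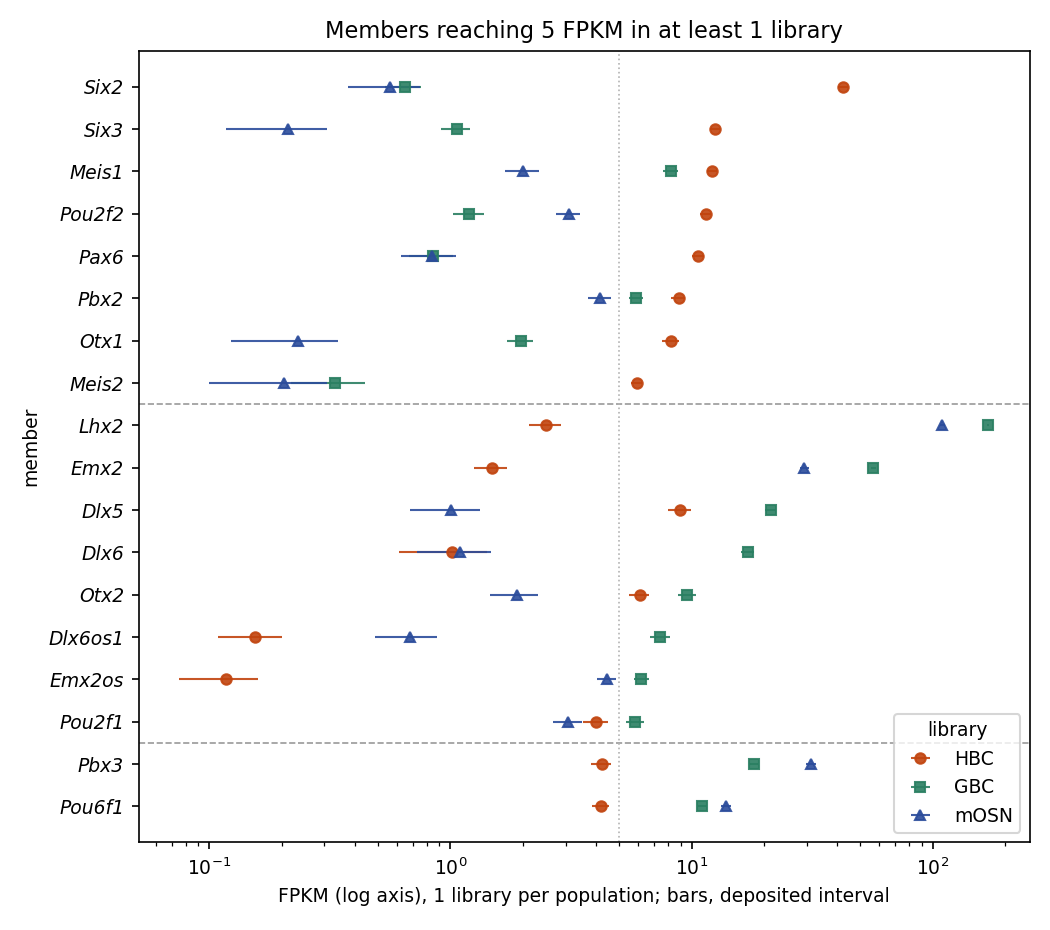
FPKM (log x axis) of 18 members that reach 5 FPKM (dotted line) in at least 1 library, with 1 point per library and the deposited interval as a bar. Dashed lines separate members highest in HBC (top), GBC (middle) and mOSN (bottom). Lhx2 and Emx2 lie far to the right in GBC and mOSN only, and Six2 in HBC only.

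Among the Pbx and Meis genes, Pbx3 and Pbx4 had their highest deposited value in mOSN, and no Meis gene did. Pbx3 (chromosome 2, 34027429 to 34227556) had 4.24 FPKM in HBC (3.83 to 4.65) compared with 18.1 in GBC (17.2 to 18.9) and 31.3 in mOSN (29.9 to 32.8). In mOSN its interval overlapped that of Emx2, and both lay below Lhx2. Pbx2 had 8.83, 5.90 and 4.18 FPKM in HBC, GBC and mOSN. Pbx4 had 0.150 FPKM in HBC, from 6 fragments, 3.26 in GBC and 3.41 in mOSN, with overlapping intervals in the neuronal libraries. Meis1 had 12.1 FPKM in HBC (11.6 to 12.7) compared with 8.21 in GBC (7.58 to 8.83) and 2.0 in mOSN (1.68 to 2.33). Meis2 had 5.92 FPKM in HBC compared with 0.330 in GBC and 0.203 in mOSN, and Meis3 had 2.22, 3.56 and 1.91. Pou6f1, a POU-class factor of the nervous system, was the fourth member in mOSN and had 4.20, 11.1 and 13.9 FPKM in HBC, GBC and mOSN. Pbx2, Pbx3 and Pou6f1 were above 4 FPKM in every library. Pou2f1, a broadly expressed octamer-binding factor gene, had 4.03, 5.85 and 3.08 FPKM.

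Dlx5 and Dlx6, genes of the olfactory placode, were present in GBC and low in mOSN. Dlx5 (chromosome 6, 6827805 to 6832068) had 8.98 FPKM in HBC (8.02 to 9.93) compared with 21.3 in GBC (20.2 to 22.4) and 1.01 in mOSN (0.680 to 1.33). Dlx6 lies 9834 bases away and had 1.02 FPKM in HBC (0.610 to 1.42) compared with 17.1 in GBC (16.1 to 18.1) and 1.10 in mOSN (0.725 to 1.47). The neighbours were close in GBC and mOSN, while in HBC the Dlx5 interval lay wholly above that of Dlx6. Dlx6os1 spans Dlx6 in the tables and had 0.155, 7.42 and 0.681 FPKM in HBC, GBC and mOSN. Use of strand in the counting is not stated in the labels, so reads of Dlx6, Dlx6os1 and Dlx6as, which lies inside both, may not have been kept apart. Dlx6as had 0.790 FPKM in GBC and was listed at 0 in HBC. Dlx3 had 0.835, 1.84 and 0.109 FPKM, and its neighbour Dlx4 at most 0.191 (HBC). Dlx1 and Dlx2 stayed under 0.1 FPKM in all libraries.

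Dlx6os1 is shown as a start within the Dlx5 and Dlx6 locus. Its 250 bases are chr6:6869534-6869783, strand - in GRCm38.p6 (the first of 2 RefSeq starts), with TAAT and ATTA in capitals.
Dlx6os1: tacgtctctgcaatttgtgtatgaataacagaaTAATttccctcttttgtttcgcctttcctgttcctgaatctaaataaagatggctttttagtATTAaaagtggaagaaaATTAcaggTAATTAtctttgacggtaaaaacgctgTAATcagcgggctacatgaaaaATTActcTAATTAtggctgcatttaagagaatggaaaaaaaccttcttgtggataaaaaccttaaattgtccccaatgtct
The window held 9 TAAT matches over both strands, 4 of them in 2 copies of the palindrome TAATTA, and had 33.2% G and C.

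Six4 had 3.20, 1.62 and 0.244 FPKM in HBC, GBC and mOSN, and was thus lowest in mOSN. Six6 had 1 fragment in GBC and was listed at 0 in the other libraries. Otx2, a factor of the anterior head, had 6.09 FPKM in HBC (5.50 to 6.68) compared with 9.61 in GBC (8.77 to 10.4) and 1.89 in mOSN (1.47 to 2.31). Six5 was the only gene of the Six2 family highest in mOSN, at 2.26 FPKM against 0.965 in GBC and 1.02 in HBC, and the intervals of GBC and HBC overlapped. That order turned with 1 conversion factor per gene from fragments to FPKM in all libraries, where Six5 had 0.514, 2.12 and 2.04 FPKM in HBC, GBC and mOSN.

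The genes highest in HBC were led by Six2. Six2 (chromosome 17, 86083608 to 86087594), known as a factor that maintains progenitors in the kidney, had 42.4 FPKM in HBC (40.5 to 44.4) compared with 0.645 in GBC (0.536 to 0.753) and 0.562 in mOSN (0.375 to 0.749). HBC stood alone, since the intervals of GBC and mOSN overlapped. Six3 lies 58076 bases from Six2 and had 12.5 FPKM in HBC (11.9 to 13.1) compared with 1.06 in GBC (0.912 to 1.21) and 0.212 in mOSN (0.117 to 0.307). Six3os1, its opposite-strand neighbour at 1422 bases, had 4.57, 0.425 and 0.277 FPKM. All 3 symbols of this locus were thus highest in HBC. Pax6, known in this tissue in basal, sustentacular and gland cells, had 10.6 FPKM in HBC, 0.849 in GBC (0.676 to 1.02) and 0.837 in mOSN (0.625 to 1.05). Otx1 had 8.19, 1.95 and 0.233 FPKM. In HBC the interval of Meis1 overlapped those of Six3 and Pou2f2, so the order of these neighbours is not resolved.

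The 250 bases before the starts of Six2 (chr17:85688255-85688504, strand -) and Six3 (chr17:85620584-85620833, strand +) in GRCm38.p6 are shown because both genes were called higher in HBC than in GBC and in mOSN, with TAAT and ATTA in capitals.
Six2: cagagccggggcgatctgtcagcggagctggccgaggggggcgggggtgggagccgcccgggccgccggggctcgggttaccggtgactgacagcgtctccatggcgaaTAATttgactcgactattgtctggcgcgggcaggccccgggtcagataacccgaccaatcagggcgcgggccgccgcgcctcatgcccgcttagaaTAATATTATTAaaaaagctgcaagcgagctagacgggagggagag
Six3: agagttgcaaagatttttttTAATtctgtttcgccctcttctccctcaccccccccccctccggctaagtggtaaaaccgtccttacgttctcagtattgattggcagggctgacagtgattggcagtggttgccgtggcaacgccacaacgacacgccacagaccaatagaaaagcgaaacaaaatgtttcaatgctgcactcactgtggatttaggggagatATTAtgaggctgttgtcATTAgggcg
The Six2 window held 4 matches, the last 2 of which share a base, and the Six3 window held 3. Neither held TAATTA.

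**Figure D3:**
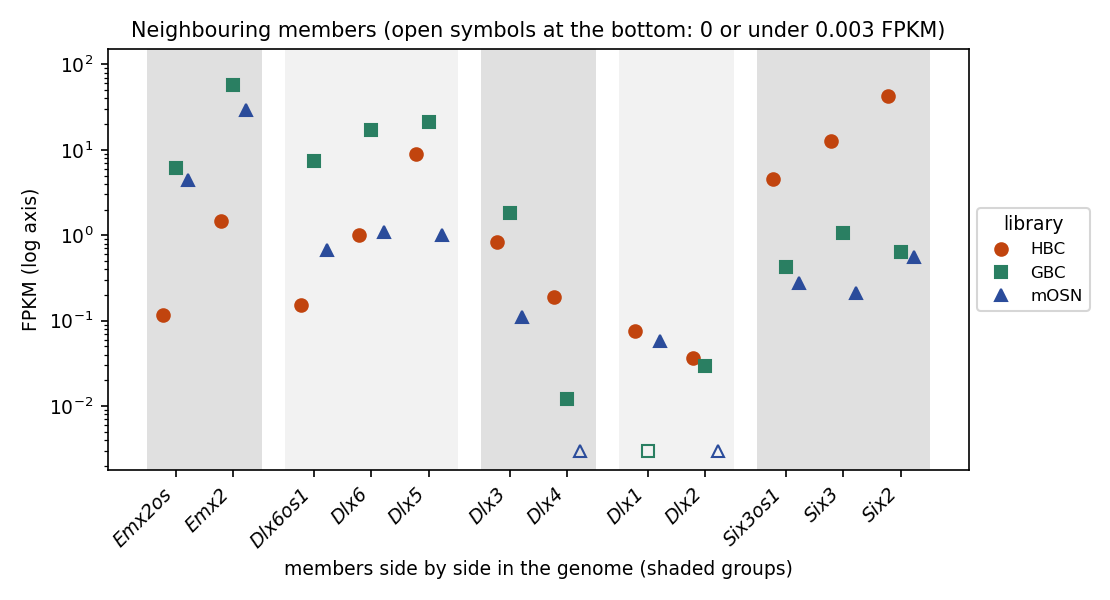
FPKM (log y axis) of members that lie side by side in the genome (shaded groups) in HBC, GBC and mOSN, with open symbols at the bottom for 0 or under 0.003 FPKM. Dlx5 and Dlx6 lie close in GBC and mOSN and apart in HBC, and all symbols of the Six2 and Six3 locus are highest in HBC.

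Several HBC-high members are known from blood cells. Pou2f2, a B cell factor that also occurs in macrophages and neurons, had 11.5 FPKM in HBC (10.9 to 12.1) compared with 1.20 in GBC (1.02 to 1.37) and 3.09 in mOSN (2.74 to 3.44). Pou2af1, the B cell coactivator of octamer-binding factors, had 2.62, 0.103 and 0.153 FPKM. Pax5, which specifies B cells, had 2.47 FPKM in HBC, from 80 fragments, and was listed at 0 in GBC and mOSN. All 10 listed B cell markers were highest in the same library, with Cd79a at 7.39 and Igj at 11.2 FPKM there, and their part in the levels of these 3 genes was not tested. Hlx, Hhex and Zeb2, homeobox genes known from blood cells and outside the 127, had 8.78, 6.33 and 8.56 FPKM in HBC and stayed under 0.2 in the other libraries; they were picked after their values were seen.

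The other members between 1 and 5 FPKM were mostly HBC-high. Pax9 had 2.62 FPKM in HBC compared with 0.0194 in GBC and 0 in mOSN, and Pax7 had 1.10, 0 and 0.00826. Irx3 had 1.94 FPKM in HBC and was listed at 0 elsewhere. Msx1, a craniofacial patterning gene overlapped by Msx1as in the tables, had 2.79, 0.494 and 0.0736 FPKM. The fibroblast and smooth muscle markers, including Col1a1 at 39.9 and Dcn at 62.1 FPKM, were also highest in HBC, and their part in these levels was not tested. Pou2f3 ran the other way. This gene, which specifies tuft-type chemosensory cells, had 0.0501 FPKM in HBC compared with 0.689 in GBC and 2.80 in mOSN (2.39 to 3.21). Of 9 markers of microvillous and tuft cells, 5 were highest in mOSN, 2 in HBC (Il25 and Gfi1b) and 2 in GBC (Chat and Sh2d7). Among the 5 were Trpm5 at 0.529 FPKM, Ascl3 at 1.92 and Avil, at 0.317 against 0.316 in HBC. The list summed to 3.14 FPKM in HBC compared with 1.97 in GBC and 4.41 in mOSN, Chat was listed at 0 in mOSN, and their part in the Pou2f3 level was not tested.

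Hox and Nkx genes were near the limit of detection in all libraries, and Irx genes in GBC and mOSN. Among 40 Hox symbols, 18 were listed at 0 in all libraries, and the highest value was 0.385 FPKM for Hoxb4 in HBC, from 44 fragments. Above 0 were 13 Hox symbols in HBC, 16 in GBC and 2 in mOSN (Hoxa7 and Hoxb13). The highest Nkx value was 0.0878 FPKM (Nkx2-3 in HBC, 5 fragments), and all 14 Nkx symbols were listed at 0 in mOSN. All 6 Irx genes were highest in HBC, with Irx5 at 0.984 FPKM, and all were listed at 0 in mOSN. The Pou4f1, Pou4f2 and Pou4f3 genes, sensory neuron factors in retina, ear and sensory ganglia, stayed at or below 0.0573 FPKM. A listing at 0 is not a measure of absence.

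The precursor step was compared first. The call required 5 FPKM or more in the higher library and a log2 ratio of 2 or more after adding 1 FPKM, a scale that understates the change of low genes. Of the 20 members with at least 5 FPKM in GBC or HBC, 5 were higher in GBC (25.0%, with 15.5% of all 9101 symbols at that level) and 5 in HBC (25.0%, with 16.5% of all). Those higher in GBC were Lhx2 (log2 ratio 5.61), Emx2 (4.54), Dlx6 (3.17), Dlx6os1 (2.87) and Emx2os (2.69). Those higher in HBC were Six2 (GBC over HBC, -4.72), Six3 (-2.71), Pax6 (-2.65), Pou2f2 (-2.50) and Meis2 (-2.38). Emx2os lies beside Emx2, Dlx6os1 overlaps Dlx6, and Six2 and Six3 are neighbours, so these calls are not separate observations. Without the opposite-strand transcripts the GBC count was 3, and the share of members was not recomputed. Over 32 members with at least 1 FPKM in either library the median log2 ratio was -0.32, and over all 13736 such symbols 0.46. With median-of-ratios scaling these medians were -0.90 and -0.05, so the offset between members and all genes stayed negative.

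Between GBC and mOSN, made with the same kit, the called members all had their higher value in GBC. Of 14 members with at least 5 FPKM in either, 0 were higher in mOSN (7.12% of all 8678 symbols) and 4 in GBC (28.6%, with 3.16% of all). Among them were Dlx5 (mOSN over GBC, -3.47), Dlx6 (-3.11) and Dlx6os1 (-2.32). These symbols lie side by side on chromosome 6, with Dlx6os1 overlapping Dlx6, and so are not separate observations. Without the opposite-strand transcripts the GBC count was 3. Otx2 (-1.88) and Meis1 (-1.62) were just short of the threshold. Towards mOSN the ratios were 0.76 for Pbx3 and 0.30 for Pou6f1. For Pou6f1 the sign turned with a common sum (-0.05) and with 1 conversion factor per gene (-0.11). Pou2f3 (1.17) and Pou2f2 (0.90), both under 5 FPKM in these libraries, had larger ones. Lhx2 and Emx2 stood at -0.63 and -0.93. The median over 23 members at 1 FPKM was -0.77, and over all 12551 such symbols 0.24.

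Over the whole span from HBC to mOSN, 3 of 16 members were higher in mOSN (18.8%, with 24.0% of all 9779 symbols) and 8 in HBC (15.8% of all). Lhx2 (4.98), Emx2 (3.61) and Pbx3 (2.63) were the former. Among the latter were Six2 (mOSN over HBC, -4.80), Six3 (-3.48), Otx1 (-2.90), Pax6 (-2.66), Meis2 (-2.52), Dlx5 (-2.31) and Meis1 (-2.13). Six2 and Six3 are neighbours and so are not separate observations. This comparison shares its libraries with the other comparisons and is not independent of them. The median over 31 members was -1.56, and over all 14092 symbols 0.63. With median-of-ratios scaling Pbx3 stood at 1.91, below the threshold.

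The size of the Lhx2 and Six2 differences depended on how fragments were turned into FPKM. The deposited intervals imply 164 fragments of Lhx2 in HBC compared with 27866 in GBC and 7968 in mOSN. The fragments behind 1 FPKM of Lhx2 in mOSN were 0.443 of those in GBC, while the median over all 10322 symbols compared was 0.712 and over 16 members 0.653. With 1 conversion factor per gene in all libraries, Lhx2 had 1.72 FPKM in HBC compared with 293 in GBC and 91.8 in mOSN, and its log2 ratio of mOSN over GBC was -1.66. Emx2 had 1.67, 66.2 and 22.4 FPKM on that scale, with -1.52. Six2 had 21.4, 1.60 and 0.448, so that GBC over HBC became -3.11. The ratio of Pbx3 between mOSN and GBC became 0.21, and Dlx6os1 was no longer called in GBC against HBC (1.78) or in mOSN against GBC (-1.70), while Otx2 was called (-2.03). The cause of the differing conversion was not tested.

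**Figure D4:**
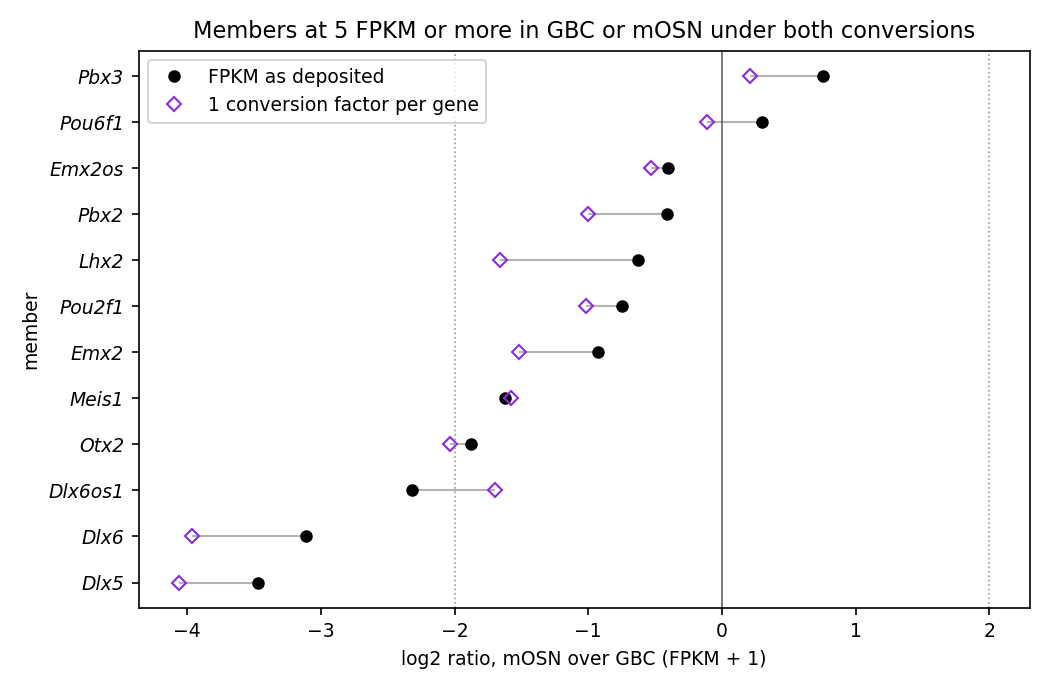
Log2 ratio of mOSN over GBC on the (FPKM + 1) scale for 12 members with at least 5 FPKM in either library, as deposited (filled circles) and with 1 conversion factor per gene (open diamonds). Dotted lines mark the threshold of 2 in each direction. Lhx2 moves from -0.63 to -1.66, and Dlx5 and Dlx6 lie beyond -3 under both.

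Other homeobox genes were counted the same way. Of 104 listed, 102 were found and 22 reached 5 FPKM in any library. Between GBC and HBC, 5 of 20 at that level were higher in GBC (15.5% of all symbols) and 4 in HBC (16.5% of all). Between mOSN and GBC, 0 of 16 were called in either direction (7.12% of all higher in mOSN, 3.16% in GBC). Between mOSN and HBC, 5 of 21 were higher in mOSN (24.0% of all) and 7 in HBC (15.8% of all). Tshz2, a zinc-finger homeobox gene, had 9.19 FPKM in HBC compared with 82.9 in GBC and 173 in mOSN. Uncx had 3.51, 92.5 and 88.7 FPKM and Pknox2, a TALE gene, 1.08, 27.2 and 21.0. Tshz1 had 8.47, 53.0 and 22 FPKM. The repressor gene Tgif1, also of the TALE class, went the other way with 64.5, 5.93 and 1.38 FPKM. Adnp had 15.9, 20.1 and 28.4 FPKM and Cux1 had 21.3, 10.2 and 12.2.

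Cofactors of the members were read beside them. Of 23 listed, 18 reached 5 FPKM in any library. Ldb1 had 23.3 FPKM in HBC compared with 80.9 in GBC and 36.3 in mOSN, and Ssbp2, which stabilises Ldb1 complexes, 1.70, 31.5 and 17.5. Ssbp3 had 8.95, 31.0 and 26.3 FPKM. Their relatives did not share that order: Ssbp4 had 12.6, 6.28 and 15.8 FPKM, lowest in GBC, and Ldb2 had 0.466 and 0.131 FPKM in HBC and GBC and was listed at 0 in mOSN. Of the LIM-only genes, whose products compete for Ldb1, Lmo2 had 22.3, 10.2 and 24.3 FPKM and Lmo4 20.1, 23.6 and 12.9. Eya2, a coactivator of Six2 and its relatives, had 43.0, 49.9 and 0.445 FPKM, and thus was low in mOSN only. The other Eya genes did not share that order. Eya1 had 13.0, 1.64 and 0.99 FPKM and Eya4 had 6.76, 0.429 and 0.493, both highest in HBC. Eya3 had 4.83, 12.1 and 9.55 FPKM, lowest in HBC. Pbxip1, a Pbx-binding protein gene, had 23.3, 2.36 and 4.68 FPKM. The Groucho-family corepressor genes Tle3 and Aes had 27.3, 41.7 and 55.3 FPKM and 57.5, 56.6 and 35.5 FPKM. Between mOSN and GBC, 4 of 14 cofactors were higher in GBC (Eya2, Lmo1, Tle1 and Dach1) and 0 in mOSN, with 3.16% and 7.12% of all symbols. Between GBC and HBC, 3 of 18 were higher in GBC (15.5% of all) and 3 in HBC (16.5% of all). Between mOSN and HBC, 1 of 16 was higher in mOSN (24.0% of all) and 5 in HBC (15.8% of all). Lmo1, Tle1, Dach1, Ssbp4, Ldb2, Eya1, Eya3 and Eya4 were named after their values were seen.

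**Figure D5:**
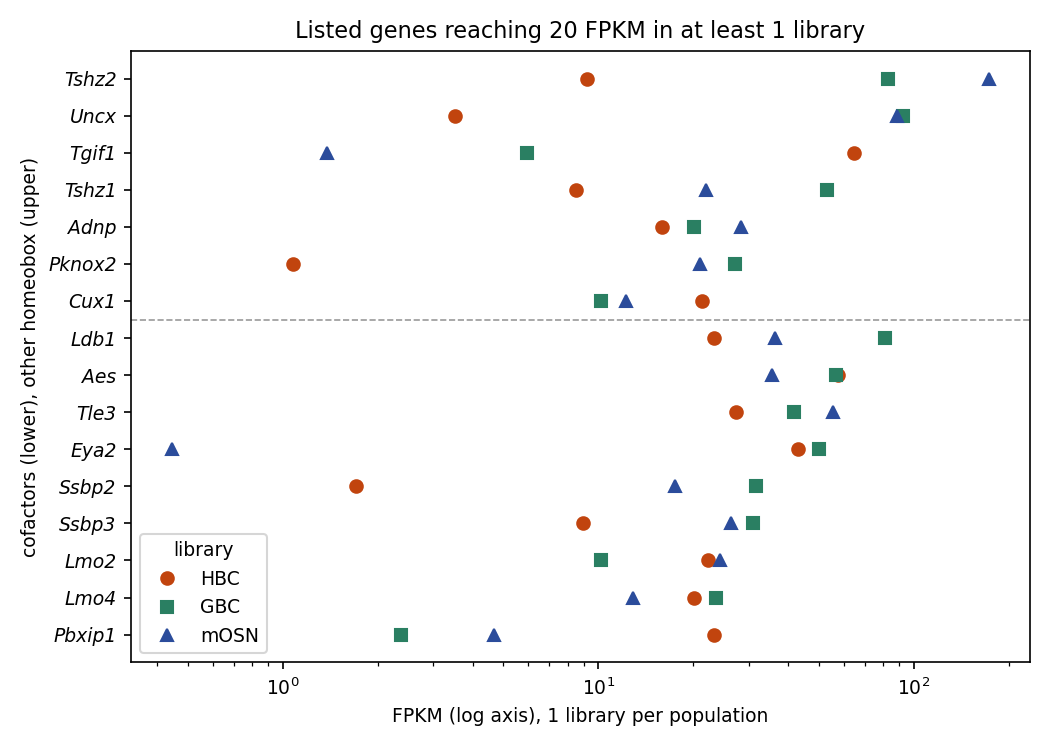
FPKM (log x axis) in HBC, GBC and mOSN of the listed other homeobox genes (above the dashed line) and cofactors (below it) that reach 20 FPKM in at least 1 library. Uncx and Pknox2 are high in GBC and mOSN only, and Eya2 is at 0.445 FPKM in mOSN against more than 40 in the other libraries.

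Promoter composition was compared last. A RefSeq window was matched for 82 of the 127 symbols. The 250 bases before the start had a median of 61.6% G and C and 13.0 CpG in these 82, against 52.0% and 6 over all 27025 genes of the table. The 24 members at 1 FPKM or more in any library had medians of 61.8% and 13.0 CpG, and the 58 under 1 FPKM had 61.6% and 13.5. The medians of these groups lay close together. TAAT on either strand was in 12 of the former and 30 of the latter, and in 55.4% of all windows. TAATTA was in 8.33% of the former, 5.17% of the latter and 4.91% of all. A match describes the letters only and is no evidence of binding.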

How the data were processed

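The deposited tables, 1 for each library, hold FPKM for every gene with lower and upper bounds and a status, per the file headers. Cufflinks, TopHat, Bowtie and mm9, a mouse build, are named in the submitters' processing notes, with annotation, options and versions not given in the sources used here. Samples were grouped by their titles. The 5-hydroxymethylcytosine and 5-methylcytosine samples were not analysed here.

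Rows of 1 symbol were added up (22345 rows, 21909 symbols). All 127 members had a single row with status OK in each table. Starts were raised by 1. Fragment numbers were computed as the square of 2 times the FPKM over the distance from the FPKM to its upper bound. Their totals were 18123431 (HBC), 18087151 (GBC) and 16515948 (mOSN). Of members with at most 100 fragments, 42 of 47, 49 of 59 and 21 of 28 came out within 0.03 of a whole number. Reads amplified without molecular identifiers are not independent molecules.

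No test was possible with a single library in each group. A few genes are counted but not reported here by name. Every other member with at least 5 FPKM in any library was named with all values, those between 1 and 5 with at least their highest value, and listed genes from 20 FPKM. The members and lists were chosen with earlier results of these data known. Protein sequences had been planned and were not used here. Alternatives were other pseudocounts (0.1 and 5 FPKM), floors, a log2 threshold of 1, 3 scalings, row handling, interval overlap and leaving out opposite-strand transcripts and Pou2af1. Python 3.11.15, pandas 2.3.3, numpy 2.4.6 and matplotlib 3.10.9 were used.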

Additional observations from a re-analysis of the deposited data

How the results depend on the processing

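No paired analysis was possible because each population was 1 library. No library was left out for the same reason. Depth limits members under 1 FPKM, many of which rest on fewer than 10 fragments. Of 108 alternative values for counts and medians over members, 79 stayed near the reported value, 27 moved and 2 changed sign. Those that stayed include the row-handling alternatives, which could not move because every member had a single row with status OK. Of 420 alternative log2 ratios of named members, 224 stayed near the main value, 196 moved and none reversed a call's direction. The 420 include the row-handling alternatives, which left these ratios unchanged. Ratios that were not calls were not counted as reversed when their sign turned. Among these, Pou2f1 in GBC over HBC went from 0.45 to -0.07 with median-of-ratios scaling. Pou6f1 in mOSN over GBC went from 0.30 to -0.11 with 1 conversion factor per gene.

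With a pseudocount of 5 FPKM the members higher in GBC than in HBC numbered 2, those higher in HBC than in GBC 1, those higher in GBC than in mOSN 1 and those higher in HBC than in mOSN 2. With a floor of 20 FPKM the same counts were 2, 1, 1 and 1. At a log2 ratio of at least 1 there were 8 members higher in GBC than in HBC and 7 higher in GBC than in mOSN. Without opposite-strand transcripts and Pou2af1, 3 were higher in GBC than in HBC.

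The median log2 ratio of GBC over HBC was -0.20 with a pseudocount of 5 FPKM, 0.00 with no filter, -0.43 with a common sum, -0.90 with median-of-ratios scaling and -0.16 with 1 conversion factor per gene. At 20 FPKM only 4 members were left, and it was 2.85. For mOSN over GBC it was -0.95 and -0.41 with pseudocounts of 0.1 and 5 FPKM, -0.01 with no filter, -1.04 with a common sum and -1.26 with 1 conversion factor. For mOSN over HBC it was -2.54 and -0.58 with those pseudocounts, 0.00 with no filter, -1.70 with a common sum, -1.92 with median-of-ratios scaling, -1.43 without opposite-strand transcripts and Pou2af1, and 3.12 over the 4 members left at 20 FPKM. Medians over all symbols shifted with the scaling too. With a common sum they were 0.38 for GBC over HBC, -0.08 for mOSN over GBC and 0.23 for mOSN over HBC. With median-of-ratios scaling they were -0.05, 0.08 and -0.03 in that order, and with 1 conversion factor per gene 0.25, -0.05 and 0.13. The causes were not tested where the alternative itself does not show them.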
